A study of Mus musculus with 42 samples.

Results

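Matricellular proteins are secreted proteins that sit in the extracellular matrix, bind growth factors and integrins, and do little to hold the tissue together mechanically. The genes described are 10 such matricellular and other non-collagen matrix genes, chosen by name: Postn, Tnc, Thbs1, Sparc, Spp1, Fn1, Dcn, Bgn, Lum and Sfrp2. Probes were found by their annotated gene symbol, which gave 9 of the 10 genes on each of the 2 array designs. These were 11 of 21997 probes on the first design and 22 of 36924 on the second. No listed probe carried the symbol Spp1 (osteopontin, a secreted phosphoprotein that binds integrins), so the expression of Spp1 was not analysed here. In this gene set periostin and tenascin C were above every papilloma with a risk label and every skin, where measured, in 2 of the 6 carcinomas. Among the labelled groups decorin was on average lowest in high-risk papillomas. Its lower value there against normal skin was the 1 difference of 54 that passed the test, in a comparison where 5.01% of all probes passed.

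In adult skin most of these genes are transcribed by dermal fibroblasts. Periostin, tenascin C, thrombospondin 1 and fibronectin are known for their induction in healing wounds and in tumour stroma. Decorin, biglycan and lumican are small leucine-rich proteoglycans that bind collagen fibrils, and decorin also binds growth factor receptors and TGF-beta.

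The arrays set RNA of whole tissue from mouse skin tumours and skin, in 1 dye, against a universal mouse reference RNA in the other. The 4 labelled groups lay on the first design, with 6 squamous cell carcinomas, 10 papillomas called high-risk, 9 papillomas called low-risk (10 arrays) and 6 normal skins, while 10 papillomas labelled as unknown lay on the second. All tumours came from female Sencar mice initiated at 7 to 8 weeks of age and treated with DMBA (a carcinogen that starts tumours) and TPA (a phorbol ester that promotes them). The normal skin was adult and untreated, and no strain or sex was given for it, so treatment and any strain difference cannot be told apart from tumour against skin. Nothing in the labels says what defines a risk class. Some tumours of a group share a code in their labels and may come from 1 animal, so p-values may measure a spread smaller than that between animals.

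A value is the log2 ratio of sample over reference, centred on the array's median, so 0 is the ratio of the median probe of that array and each unit is a factor of 2. The ratio's direction is likely, not stated. Ratios of different genes are not levels and were not set against each other. The number of arrays limits the precision. The labelled arrays held 16286 to 21494 probes with a value, and the SD of their log2 ratios ran from 0.45 to 1.95. Arrays fell into 5 sets, A to E, by which probes were left empty. Set A held 4 skins and 1 high-risk papilloma, set B low-risk papillomas alone, set E high-risk papillomas alone, set C (SD 0.70 at the median) 4 high-risk papillomas, 1 skin and carcinomas 5 and 6, and set D carcinomas 1 to 4 with 3 low-risk papillomas, 1 high-risk papilloma and 1 skin. Normal skin 1 and carcinoma 6 had nearly the same values across probes (r = 0.984), which their labels do not account for. Some results of Postn and Fn1 are also given without that pair, which was 1 of the 15 other settings. Low-risk papilloma 1 is the mean of 2 arrays with opposite dyes, whose values correlated at r = 0.306 across probes.

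As a check of the tissue labels, the keratinocyte list (7 of 10 markers measured) had a mean log2 ratio above 0 in every labelled sample, from 0.43 in a carcinoma to 2.91 in a high-risk papilloma. The fibroblast list (9 of 10 measured) averaged -0.40 ± 0.34 in carcinomas, -0.69 ± 0.57 in high-risk papillomas, -0.98 ± 0.50 in low-risk papillomas and -1.14 ± 0.29 in normal skin (SD, n = 6, 10, 9 and 6), and none of its genes passed limma's test in any comparison, with 0 to 3 of the 9 at an unadjusted p under 0.05. In bulk tissue, fewer cells of a type and less RNA per cell cannot be told apart.

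Postn and Tnc are shown first with the 300 bases around their transcription starts, 250 upstream and 50 downstream. Among carcinomas both were highest in carcinoma 2, which is not particular to them, as Sfrp2, Sparc and Bgn were too. The sequences are from RefSeq, build GRCm38.p6, printed 5′ to 3′ on the gene's strand, with the letters TATAAA (the TATA box core) in capitals. The table held 9 such windows for 6 of the 10 genes. TATAAA, searched on both strands, occurred in 4 of the 9 windows and in 13.6% of 32851 mouse windows. It lies 26 bases before the start in the Postn window shown and 126 before it in the Tnc window shown. Postn and Tnc each had 2 windows. The other Postn window held no TATAAA, and the other Tnc window overlaps the one shown and holds the same match, 205 bases before its own start, so 1 match counts in 2 of the 4 windows. TGANTCA, the letters of the TPA response element, occurred in 0 of the 9 windows and in 7.81% of all windows. These are matches of letters, not sites.
Postn, chr3:54360857-54361156, + strand: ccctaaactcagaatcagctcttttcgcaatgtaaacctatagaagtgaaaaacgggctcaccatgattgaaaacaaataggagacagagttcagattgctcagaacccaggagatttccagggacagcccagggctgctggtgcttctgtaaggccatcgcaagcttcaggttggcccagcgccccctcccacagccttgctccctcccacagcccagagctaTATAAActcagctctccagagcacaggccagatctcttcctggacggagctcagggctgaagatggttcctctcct
Tnc, chr4:64046966-64047265, - strand: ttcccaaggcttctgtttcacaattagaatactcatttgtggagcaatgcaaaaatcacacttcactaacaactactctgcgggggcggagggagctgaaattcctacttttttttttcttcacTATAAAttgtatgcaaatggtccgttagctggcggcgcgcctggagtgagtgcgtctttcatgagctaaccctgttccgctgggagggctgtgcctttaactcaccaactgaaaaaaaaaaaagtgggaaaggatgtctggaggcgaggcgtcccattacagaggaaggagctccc

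Periostin (Postn), a fasciclin-domain protein that acts on collagen cross-linking and binds integrins, was measured in all carcinomas, 8 of 10 high-risk papillomas and all samples of the other groups. Its log2 ratios were 2.68, 3.37, 2.48, 0.56, 0.65 and 0.99 in carcinomas 1 to 6. High-risk papillomas ran from -0.95 to 1.15 with a median of 0.41, low-risk papillomas from -0.92 to 2.57 with a median of 1.10, and normal skin from 1.12 to 2.29 with a median of 1.45. Carcinomas 1 and 2 lay above every labelled papilloma and skin with a value, and carcinoma 3 above all of them but low-risk papilloma 9. Carcinomas 4, 5 and 6 lay below every normal skin and inside the range of both labelled papilloma groups.

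The means of Postn were 1.79 ± 1.20 in carcinomas, 0.32 ± 0.69 in high-risk papillomas, 1.11 ± 1.01 in low-risk papillomas and 1.59 ± 0.51 in normal skin (SD, n = 6, 8, 9 and 6). The order from high to low was thus carcinoma, normal skin, low-risk and high-risk papilloma, and neighbouring groups overlapped. Carcinomas exceeded high-risk papillomas by 1.47 ± 0.46 (SE), with a 95% interval of 0.53 to 2.42, but limma's Benjamini-Hochberg adjusted p over all probes was 0.233, and it was 0.201 without the near-identical pair. High-risk papillomas were below normal skin by a log2 change of -1.28 ± 0.46 (adjusted p = 0.106), which was -1.36 without the pair (adjusted p = 0.098). Between high-risk and low-risk papillomas the change was -0.79 ± 0.42 (adjusted p = 0.325), and with the array set as a block it turned to 1.07. Scale and quantile normalization gave -0.19 and -0.27.

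Tenascin C (Tnc), a large hexameric glycoprotein that modulates cell adhesion, was likewise above the array median in all 6 carcinomas. Carcinomas 1 to 6 had log2 ratios of 2.78, 4.40, 2.08, 0.98, 0.32 and 1.60. High-risk papillomas ran from 0.00 to 1.55 with a median of 0.73, and low-risk papillomas from 0.23 to 2.31 with a median of 0.75. The 5 measured normal skins had 1.67, 1.48, -0.65, 0.93 and 0.63. Carcinomas 1 and 2 lay above every labelled papilloma and skin with a value, and carcinoma 3 above all of them but low-risk papilloma 5. Carcinoma 5 was below the median of each other group.

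Tnc averaged 2.03 ± 1.44 in carcinomas, 0.70 ± 0.49 in high-risk papillomas, 1.06 ± 0.77 in low-risk papillomas and 0.81 ± 0.92 in normal skin (SD, n = 6, 10, 8 and 5). The 3 other groups overlapped. Carcinomas differed by 1.33 ± 0.44 from high-risk papillomas, by 0.97 ± 0.46 from low-risk papillomas and by 1.22 ± 0.52 from normal skin (SE), with limma adjusted p-values of 0.280, 0.300 and 0.334. Without carcinoma 2 these became 0.85, 0.49 and 0.74, and with the array set as a block the changes over low-risk papillomas and normal skin were 1.51 and 0.50. A second Tnc probe had values in only 5 samples, in set C and 1 low-risk papilloma, and was not tested.

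Carcinomas lay above papillomas on average for both genes inside set D and above high-risk papillomas inside set C. In set D, Postn averaged 2.27 in 4 carcinomas, 0.50 in 1 high-risk papilloma and 0.04 in 3 low-risk papillomas, and the carcinomas exceeded the low-risk papillomas by 2.23 ± 0.63 (SE). Tnc averaged 2.56, 0.76 and 0.82 in the same samples, a difference of 1.74 ± 0.71 between carcinomas and low-risk papillomas. The single normal skin of set D had a Postn ratio of 2.07 and a Tnc ratio of 1.48. In set C, carcinomas 5 and 6 exceeded 4 high-risk papillomas by 0.38 ± 0.35 for Postn and by 0.52 ± 0.44 for Tnc. With the array set as a block over all samples, the carcinoma over high-risk changes were 0.98 for Postn and 1.02 for Tnc, neither past the test.

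**Figure D1:**
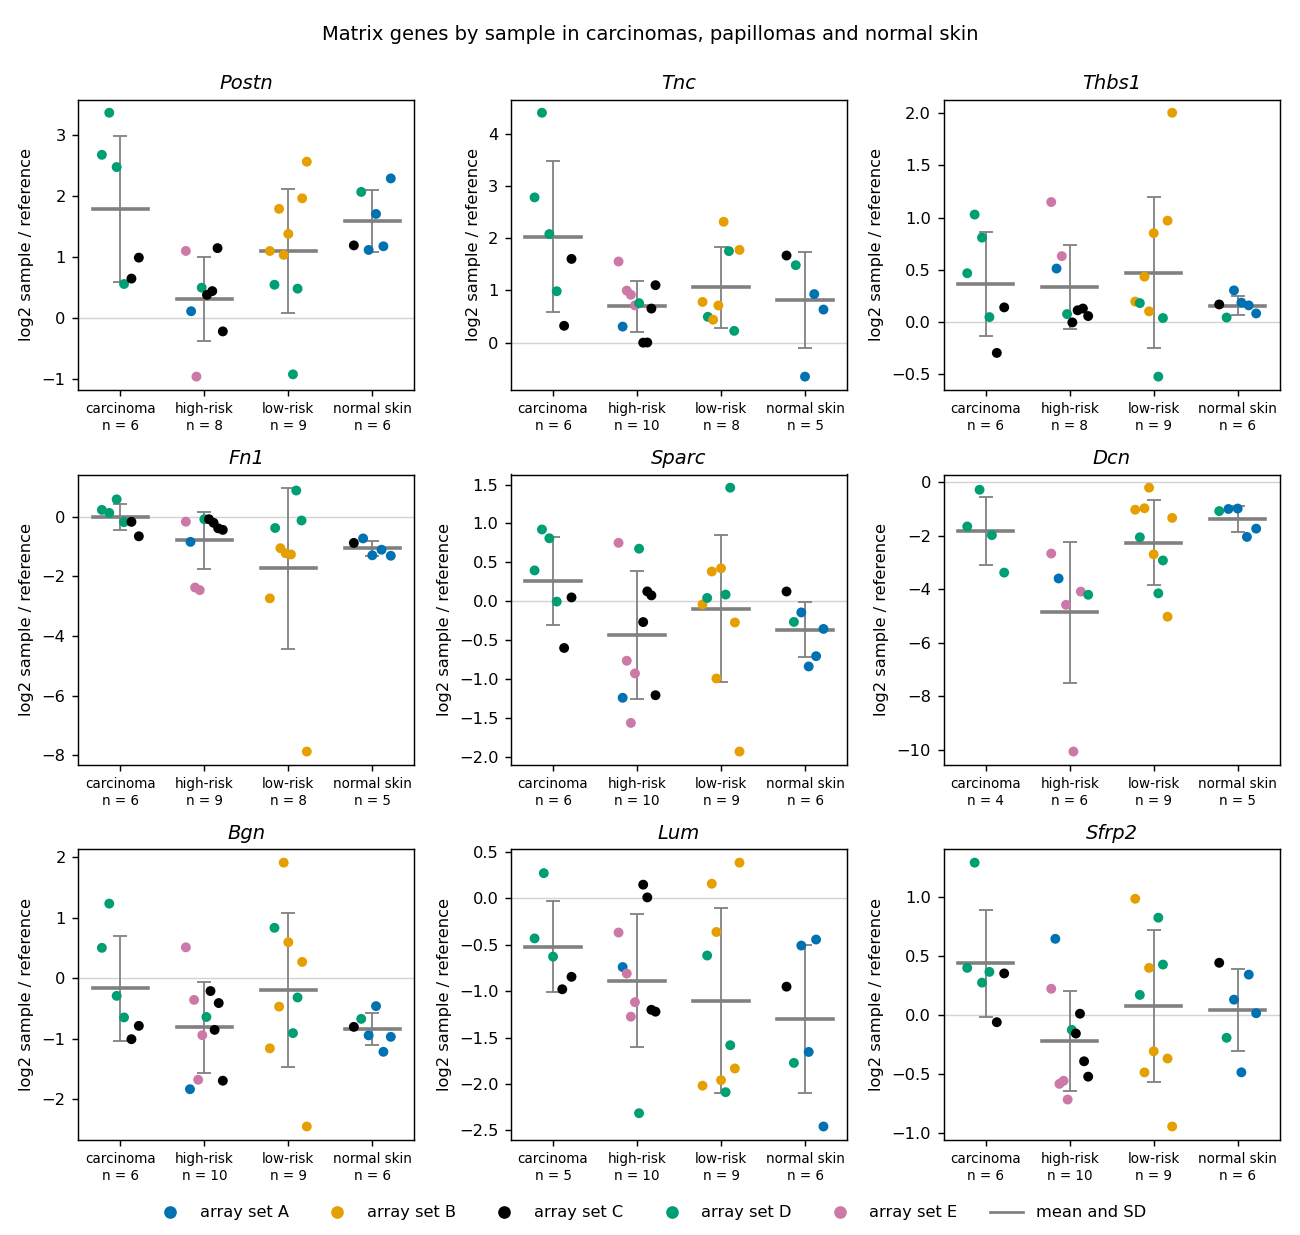
Log2 sample over reference (vertical axes, each panel its own scale) for the 9 measured genes in carcinomas, high-risk papillomas, low-risk papillomas and normal skin. Each point is 1 sample, coloured by array set, and the grey line and bar are the mean and SD. Carcinomas 1 to 3, all of set D, hold the 3 highest carcinoma values of Postn and Tnc, and Dcn has no point from set C.

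Thrombospondin 1 (Thbs1), an activator of latent TGF-beta and an inhibitor of angiogenesis, was near the array median in most samples. It ranged from -0.30 to 1.03 in carcinomas (median 0.30), from 0.00 to 1.15 in high-risk papillomas (0.12), from -0.52 to 2.00 in low-risk papillomas (0.20) and from 0.04 to 0.30 in normal skin (0.16). The groups overlapped throughout, and the 6 skins had the narrowest spread, with a mean of 0.16 ± 0.09 (SD). Carcinomas and high-risk papillomas differed by 0.03 with a 95% interval of -0.55 to 0.61.

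Sparc, a calcium-binding glycoprotein that acts on collagen assembly, ranged from -0.60 to 0.92 in carcinomas, from -1.56 to 0.75 in high-risk papillomas, from -1.93 to 1.46 in low-risk papillomas and from -0.84 to 0.13 in normal skin. Its median was 0.22 in carcinomas, -0.52 in high-risk papillomas, 0.04 in low-risk papillomas and -0.31 in normal skin. The carcinoma over high-risk change was 0.70 ± 0.38 (SE, limma adjusted p = 0.520), while inside set D it was -0.14 against the 1 high-risk papilloma there. With the array set as a block it was 0.20.

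Fibronectin (Fn1), the adhesive glycoprotein that binds integrins and collagen, had 2 probes on the first design that disagreed. The probe with more values gave 0.23, 0.13, 0.59, -0.18, -0.17 and -0.65 in carcinomas 1 to 6. High-risk papillomas ran from -2.46 to -0.08 (median -0.39, n = 9), low-risk papillomas from -7.87 to 0.88 (median -1.14, n = 8), and the 5 measured normal skins from -1.31 to -0.72. Every carcinoma thus lay above the 5 measured skins on this probe, on which normal skin 2 had no value. On the second probe normal skin 2 had 0.05, above carcinomas 3 to 6, so the groups overlapped there. The share of all probes that separate these groups was not counted. On the probe with more values the change was 1.05 ± 0.89 (SE), with a limma adjusted p of 0.771 in the fit of all groups. It passed when the fit held these 2 groups alone (adjusted p = 0.028), and was 1.23 without the near-identical pair.

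Against low-risk papillomas the same Fn1 probe gave 1.71 ± 0.79 (adjusted p = 0.282). Leaving out low-risk papilloma 8, at -7.87, gave 0.83, and with the array set as a block the change was 0.02. The second Fn1 probe averaged -0.26 ± 0.62 in carcinomas, -0.16 ± 0.63 in high-risk papillomas, 0.28 ± 0.94 in low-risk papillomas and -0.86 ± 0.58 in normal skin (SD, n = 6, 7, 8 and 5), so its change between carcinomas and low-risk papillomas was -0.54 ± 0.38, with the opposite sign. Both probes put carcinomas above normal skin, the second by 0.60 ± 0.43 (adjusted p = 0.704), and neither difference passed the test.

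Decorin (Dcn), a small leucine-rich proteoglycan, was below the array median in all 24 samples that had a value. Its log2 ratios were -1.66, -0.29, -1.98 and -3.38 in carcinomas 1 to 4, and carcinomas 5 and 6 had none. High-risk papillomas 1 to 5 and 10 had -2.67, -4.58, -10.06, -4.09, -4.21 and -3.60. The 9 low-risk papillomas ran from -5.03 to -0.21 with a median of -2.06. Normal skins 2 to 6 had -1.08, -1.005, -0.99, -2.05 and -1.74. Every measured high-risk papilloma lay below every measured normal skin, whereas carcinomas and low-risk papillomas overlapped both. The share of all probes that separate high-risk papillomas from normal skin was not counted. In that comparison 19.7% of all probes had an unadjusted limma p under 0.05.

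Dcn averaged -4.87 ± 2.63 in high-risk papillomas and -1.37 ± 0.49 in normal skin (SD, n = 6 and 5). It fell in high-risk papillomas by a log2 change of -3.49 ± 0.97 (SE), which is 11.3-fold, with a limma adjusted p of 0.036. It was the 1 of 9 genes called in that comparison, where 5.01% of all 18904 probes tested were called, 2.44% as lower. Without high-risk papilloma 3, the lowest, the change was -2.46 with an adjusted p of 0.057, and leaving out any 1 of the 5 measured skins or high-risk papilloma 2 also ended the call, with adjusted p-values up to 0.087. Scale and quantile normalization gave -2.24 (adjusted p = 0.059) and -2.05 (adjusted p = 0.074).

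The Dcn probe was empty on all 7 arrays of set C, so the 4 high-risk papillomas, the 1 skin and the 2 carcinomas there do not enter these values. Where an array set held both groups the order was the same. In set A the 1 high-risk papilloma had -3.60, against a mean of -1.45 over 4 normal skins, and in set D the 1 high-risk papilloma had -4.21, against -1.08 in the 1 normal skin. With the array set as a block the change was -2.53 with an adjusted p of 0.612. Over all samples, those of set C included, the smooth muscle and pericyte list also had lower values in high-risk papillomas. Its mean was -1.16 ± 0.71, against -0.40 ± 0.39 in normal skin (SD, n = 10 and 6). In the samples with a Dcn value it ran from -2.02 to -1.32 in high-risk papillomas and from -0.78 to -0.03 in normal skin. The keratinocyte list ran from 1.71 to 2.91 in those high-risk papillomas and from 0.81 to 1.45 in those skins. Over all 10 high-risk papillomas it ran from 0.82 to 2.91 and overlapped the skins. Of its 7 measured markers 0 had an unadjusted limma p under 0.05 between high-risk papillomas and normal skin. The skeletal muscle actin Acta1 and the smooth muscle actin Acta2 were also lower in high-risk papillomas (changes of -3.30 and -1.94, limma adjusted p = 0.027 and 0.034). Each was the 1 called of 7 measured markers of its list. Positive changes numbered 2 of 7 in the skeletal muscle list and 1 of 7 in the smooth muscle and pericyte list. The skeletal muscle list averaged 0.38 ± 0.40 in high-risk papillomas and 0.86 ± 0.72 in normal skin (SD, n = 10 and 6). The adipocyte list averaged -0.08 ± 0.34 in high-risk papillomas and 0.16 ± 0.25 in normal skin (SD, n = 10 and 6). Of its 8 measured markers 2 had a positive change, and 5 of the 8 had an unadjusted p under 0.05 in either direction. The 1 called was the adipocyte hormone Lep (-0.90, limma adjusted p = 0.007). The mean of the fibroblast list was not lower in high-risk papillomas, and its samples ran from -1.69 to 0.12 in high-risk papillomas and from -1.51 to -0.75 in normal skin. The part of these markers in the Dcn result was not tested.

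The other Dcn comparisons did not pass. Carcinomas exceeded high-risk papillomas by 3.04 ± 1.03 (adjusted p = 0.298), high-risk papillomas were below low-risk papillomas by a change of -2.60 ± 0.84 (adjusted p = 0.125), and low-risk papillomas differed from normal skin by -0.90 ± 0.89 (SE, adjusted p = 0.591). Without high-risk papilloma 3 the first became 2.00 and the second -1.56. Quantile normalization gave 1.54 for the first, and the array set as a block -0.86 for the second. The change between low-risk papillomas and normal skin was -0.55 without low-risk papilloma 8 and -0.16 under quantile normalization.

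Biglycan (Bgn), the proteoglycan closest to decorin in structure, did not follow the same order. It averaged -0.17 ± 0.86 in carcinomas, -0.81 ± 0.75 in high-risk papillomas, -0.19 ± 1.27 in low-risk papillomas and -0.84 ± 0.26 in normal skin (SD, n = 6, 10, 9 and 6). Single values ran from -1.01 to 1.23 in carcinomas, from -1.83 to 0.51 in high-risk papillomas, from -2.45 to 1.91 in low-risk papillomas and from -1.21 to -0.46 in normal skin. Low-risk papillomas spread beyond the skins on both sides, and their change over normal skin was 0.65 with a limma adjusted p of 0.409. It was 0.39 without low-risk papilloma 4 and 0.05 with the array set as a block. Carcinomas over high-risk papillomas gave 0.64 with a 95% interval of -0.27 to 1.56, and 0.36 without carcinoma 2.

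Lumican (Lum), a corneal and dermal fibril-spacing proteoglycan, ranged from -0.98 to 0.27 in carcinomas (median -0.63, n = 5), from -2.31 to 0.14 in high-risk papillomas (-0.97), from -2.09 to 0.38 in low-risk papillomas (-1.58) and from -2.46 to -0.45 in normal skin (-1.30). The groups overlapped. The carcinoma over high-risk change of 0.37 had a 95% interval of -0.50 to 1.23, and its sign was not the same in both array sets that held the 2 groups, at 2.05 in set D and -0.35 in set C. It was 0.17 without carcinoma 2 and 0.21 without high-risk papilloma 5.

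Sfrp2, a secreted frizzled-related protein that binds Wnt ligands, was 0.40, 1.29, 0.28, 0.37, -0.06 and 0.35 in carcinomas 1 to 6. It ran from -0.71 to 0.65 in high-risk papillomas (median -0.27), from -0.94 to 0.99 in low-risk papillomas (0.17) and from -0.48 to 0.44 in normal skin (0.07). The carcinomas, other than carcinoma 2, lay inside the range of each other group. Carcinomas exceeded high-risk papillomas by 0.65 ± 0.26 (SE, limma adjusted p = 0.380), and by 0.48 without carcinoma 2.

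**Figure D2:**
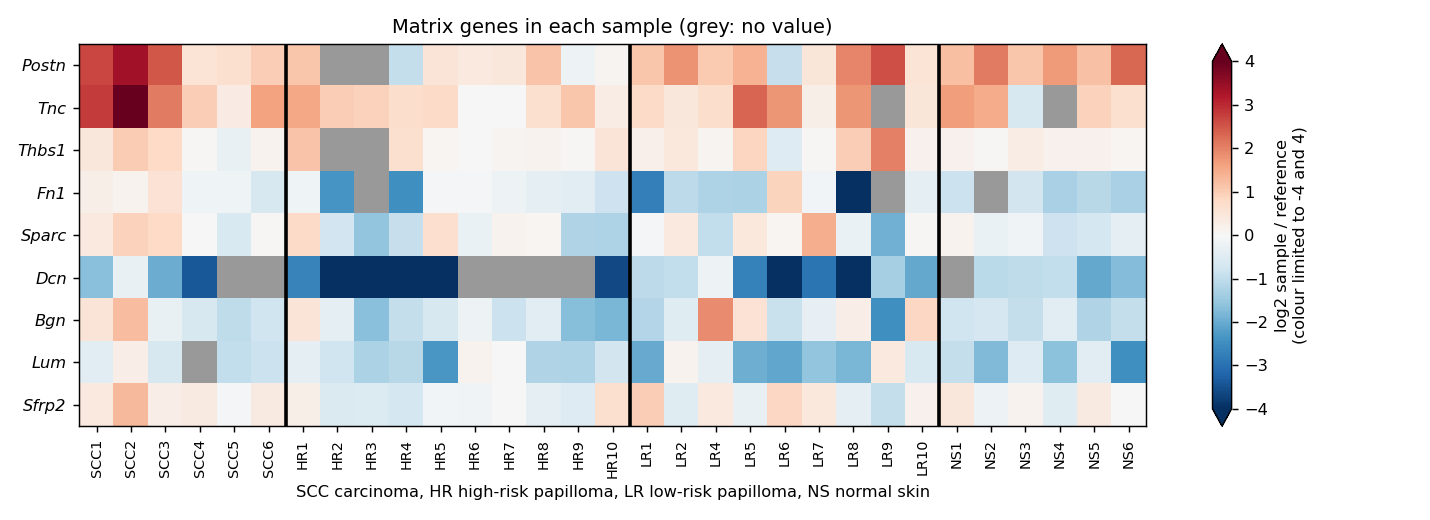
Log2 sample over reference of the 9 measured genes (rows) in each of the 31 labelled samples (columns), with carcinomas, high-risk papillomas, low-risk papillomas and normal skin from left to right. Colour is limited to -4 and 4, and grey marks no value. Carcinoma 2 is the darkest red for Postn and Tnc, and Dcn is blue or grey in every sample.

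Over the 9 genes, carcinoma 2 was the highest carcinoma for 8, the exception being Fn1. Its mean over the 7 genes with a value in all 6 carcinomas was 1.77, against 1.07, 0.96, 0.16, -0.17 and 0.24 in carcinomas 1, 3, 4, 5 and 6. The fibroblast list was also highest in carcinoma 2, at 0.10, among carcinomas from -0.74. So were the lists of macrophages (0.63, the next carcinoma at -0.08), of smooth muscle and pericytes (-0.15, the next at -0.69) and of skeletal muscle (0.81, the next at 0.39). High-risk papilloma 3, the lowest for Dcn, had the widest SD of log2 ratios among high-risk arrays, 1.72. It had the lowest fibroblast list among high-risk papillomas, -1.69. The lists of smooth muscle and pericytes (-2.02) and of endothelium (-0.82) were also lowest in it, and the other marker lists were not. The part of these markers in the members' values was not tested.

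Between carcinomas and high-risk papillomas 0 of 9 genes were called at an adjusted p of 0.05, where 0.0423% of all probes were. All 9 changes were positive in the fit of all groups, with a median of 0.70 beside -0.01 over all probes. For Fn1 this holds on the probe with more values. The second Fn1 probe gave -0.10 here and -0.54 over low-risk papillomas. The signs were not all kept inside the array sets. In set C the changes of Lum, Thbs1, Fn1 and Bgn were negative (-0.35, -0.15, -0.13 and -0.10), while those of Tnc, Sfrp2, Postn and Sparc were positive. In set D, against 1 high-risk papilloma, Sparc alone was negative (-0.14). In the fit of all groups 4 of the 9 genes (Postn, Tnc, Dcn and Sfrp2) had an unadjusted p under 0.05, against 10.5% of all probes. In the same samples the keratinocyte list averaged 0.92 ± 0.38 in carcinomas and 1.73 ± 0.66 in high-risk papillomas, with 3 of 7 markers at an unadjusted p under 0.05, and the macrophage list -0.21 ± 0.45 and -0.69 ± 0.29 (SD, n = 6 and 10), with none of either list called. Their part in these changes was not tested. Among the other comparisons of carcinomas, 0 of 9 were called against low-risk papillomas (1.12% of all probes) and 0 of 9 against normal skin (1.16%). The changes were positive for 8 of 9 genes in both, with medians of 0.44 and 0.63, beside -0.00703 and -0.0025 over all probes. At an unadjusted p under 0.05 these comparisons held 2 genes (Fn1 and Tnc) and 1 gene (Tnc), where 16.1% and 11.3% of all probes passed. The 3 comparisons share the carcinomas, so their signs are not independent of each other.

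Between high-risk and low-risk papillomas 0 of 9 genes were called (0.667% of all probes), 7 of 9 changes were negative, and the median was -0.34 beside 0.02 over all probes. Dcn alone had an unadjusted p under 0.05, against 17.3% of all probes. Low-risk papillomas against normal skin gave 0 of 9 called (7.55% of all probes) and 0 of 9 at an unadjusted p under 0.05, where 23.4% of all probes passed, with a median of 0.20 beside -0.02. In high-risk papillomas against normal skin, 5 of 9 changes were negative with a median of -0.07 beside -0.0043 over all probes, and Dcn and Postn had an unadjusted p under 0.05, against 19.7% of all probes.

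**Figure D3:**
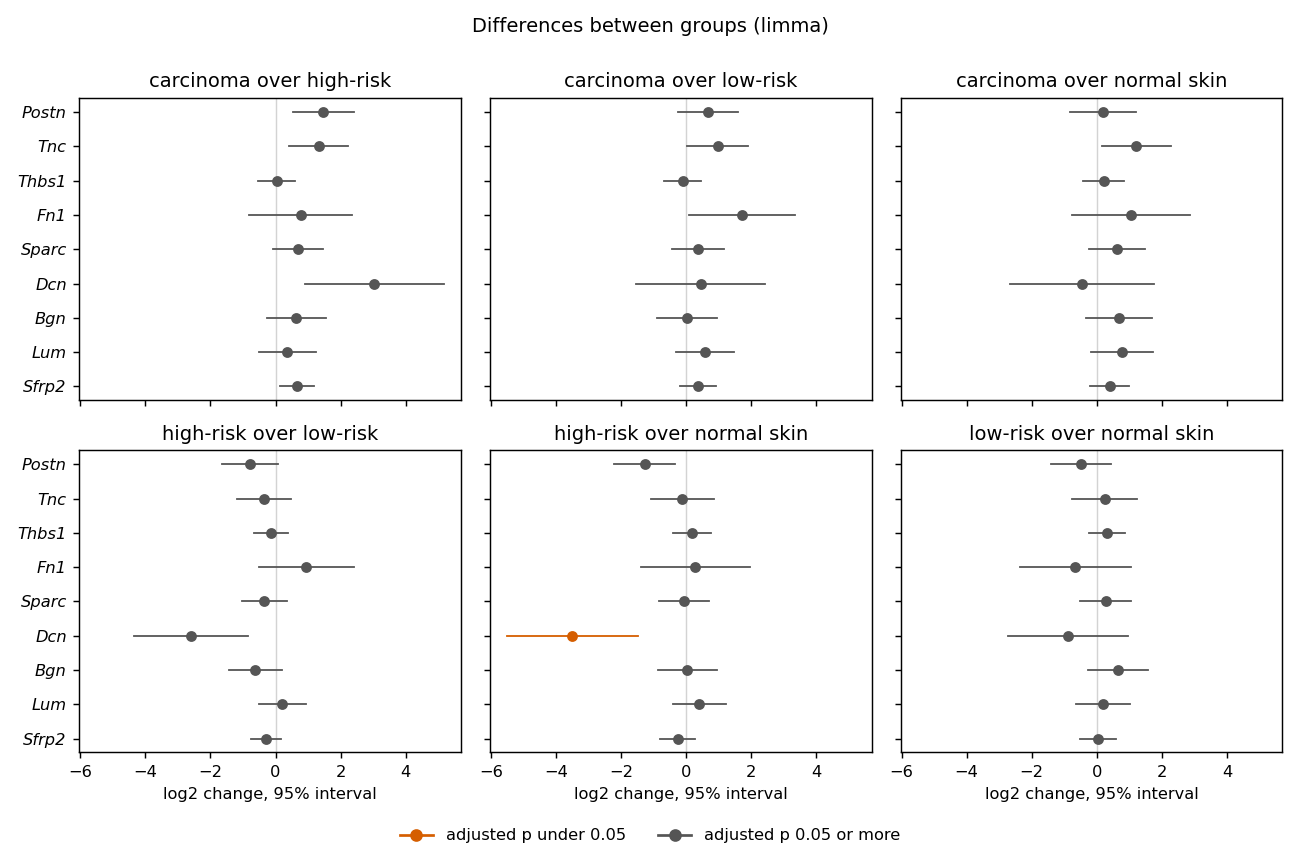
Log2 change (horizontal axis) of each of the 9 genes in the 6 comparisons, with 95% intervals from limma. Orange marks an adjusted p under 0.05, which Dcn alone has, in high-risk papillomas over normal skin. All 9 points lie right of 0 for carcinomas over high-risk papillomas, 5 of them with intervals that include 0.

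Of 113 other genes of the non-collagen matrix and its receptors, in 11 lists that were drawn up with earlier results of these data known, 91 were tested. In the 4 comparisons between tumour groups or of carcinomas with normal skin none of the 91 was called by limma, where 0.0423% to 1.16% of all probes were. At an unadjusted p under 0.05 there were 11 of 91 between carcinomas and high-risk papillomas, 11 between carcinomas and low-risk papillomas, 7 between carcinomas and normal skin and 11 between high-risk and low-risk papillomas, against 10.5%, 16.1%, 11.3% and 17.3% of all probes. Carcinomas over high-risk papillomas had a median of 0.21 over these genes, with 55 of 91 changes positive. The fibulins, fibrillins and elastic fibre genes had 12 of 13 changes positive there (median 0.39), among them Fbln5, which links elastic fibres to cells, at 1.40 ± 0.42, and in the CCN family Ccn2, a matricellular target of TGF-beta, was at 1.08 ± 0.32 (SE, limma adjusted p = 0.215 for each). Under scale or quantile normalization Ccn2 passed, at 1.16 and 1.17 (adjusted p = 0.049 and 0.047), while with the array set as a block it was 1.02 and Fbln5 0.55 (adjusted p = 1.0 for each).

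Against normal skin, 2 laminin chains were called in both papilloma groups. In high-risk papillomas 3 of 91 fell and none rose, where 5.01% of all probes were called. Lama5 and Lama3, laminin chains of the epidermal basement membrane, had changes of -1.58 ± 0.29 and -1.70 ± 0.45, and Ccn2 had -1.28 ± 0.32 (SE, limma adjusted p = 0.003, 0.025 and 0.019). In low-risk papillomas 5 of 91 fell and 1 rose, where 7.55% of all probes were called. Lama5 and Lama3 had changes of -1.51 ± 0.29 and -2.24 ± 0.46, with adjusted p = 0.002 and 0.003. Smoc2, a relative of Sparc, and Sdc2 and Ncan, proteoglycans of the cell surface and of the brain matrix, had -0.96, -1.32 and -0.91 (adjusted p = 0.012, 0.025 and 0.028). Dkk1, a secreted Wnt inhibitor, rose by 1.25 ± 0.37 (adjusted p = 0.036). The medians of the 91 genes were -0.14 in high-risk and -0.08 in low-risk papillomas over normal skin, and the papilloma comparisons share the normal skins. Averaging all probes of a gene gave -0.46 and -0.44 for Lama3 in high-risk and low-risk papillomas, and -0.39 for Ncan and -0.86 for Sdc2 in low-risk papillomas, none past the test, and with the array set as a block none of these 9 changes passed.

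After group means were removed, the members followed each other loosely. Pearson's r over 36 pairs ran from -0.41 to 0.69. The highest was between Thbs1 and Postn (n = 29 samples), at 0.55 without the 2 samples farthest from the median. Tnc and Postn had r = 0.47 (n = 27), and 0.25 without the farthest 2. The genes whose deviations were most like those of a member were Adam10 and Zdhhc16 for Postn (r = 0.79 and 0.78), Gadd45b and Zfr2 for Tnc (0.81 and 0.79), U2af2 and Akt1 for Thbs1 (0.84 and 0.83), Gtf2a1l and Selenos for Lum (0.80 and 0.79), Ccnq and Ly6g6e for Bgn (0.83 each), A930006K02Rik and Srp54a for Sparc (0.82 and 0.81) and B3gat1 and Lfng for Sfrp2 (0.73 and 0.70), out of 10734 to 11995 genes compared over 25 to 31 samples. For Fn1, Fam135b and Tbc1d19 reached 0.94 and 0.93 and had 0.64 and 0.70 without the 2 farthest samples. Dcn was measured in too few samples to be compared. All these values share arrays and their array sets.

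The 10 papillomas with no risk label were on the second design, were normalized separately, and were set neither against a group nor against the first design. Decorin had 4 probes there, with medians of -3.18, -1.87, -2.73 and -2.18, and 38 of its 40 values were below 0. The exceptions were 0.09 in unknown 2 and 1.30 in unknown 6, each on a different probe, while the other 3 probes were below 0 in both. The 2 Postn probes ran from -0.38 to 3.16 (median 1.36, n = 10) and from -0.69 to 3.25 (median 0.68, n = 9), and unknown 1 was the lowest on both.

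Tnc had 6 probes on the second design, of which 5 had medians between 0.73 and 2.35. The other had a median of -0.59 and ran from -2.27 to 1.42, with unknown 8 lowest there although it was at 2.30 to 2.88 on the other 5. The Thbs1 probes had medians of 1.55 and 1.89, with 17 of 20 values above 0. The 4 Fn1 probes had medians of -1.09, -0.05, 0.32 and -1.11, and unknown 2 was the lowest on each, down to -8.42. Sparc (median -0.69), Lum (-0.73) and Bgn (-0.87) were each highest in unknown 8, at 0.71, 0.92 and 0.30, with unknown 7 next for Sparc and Lum, at 0.67 and 0.89. Sfrp2 ran from -1.12 to 3.12 with a median of 0.61.

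**Figure D4:**
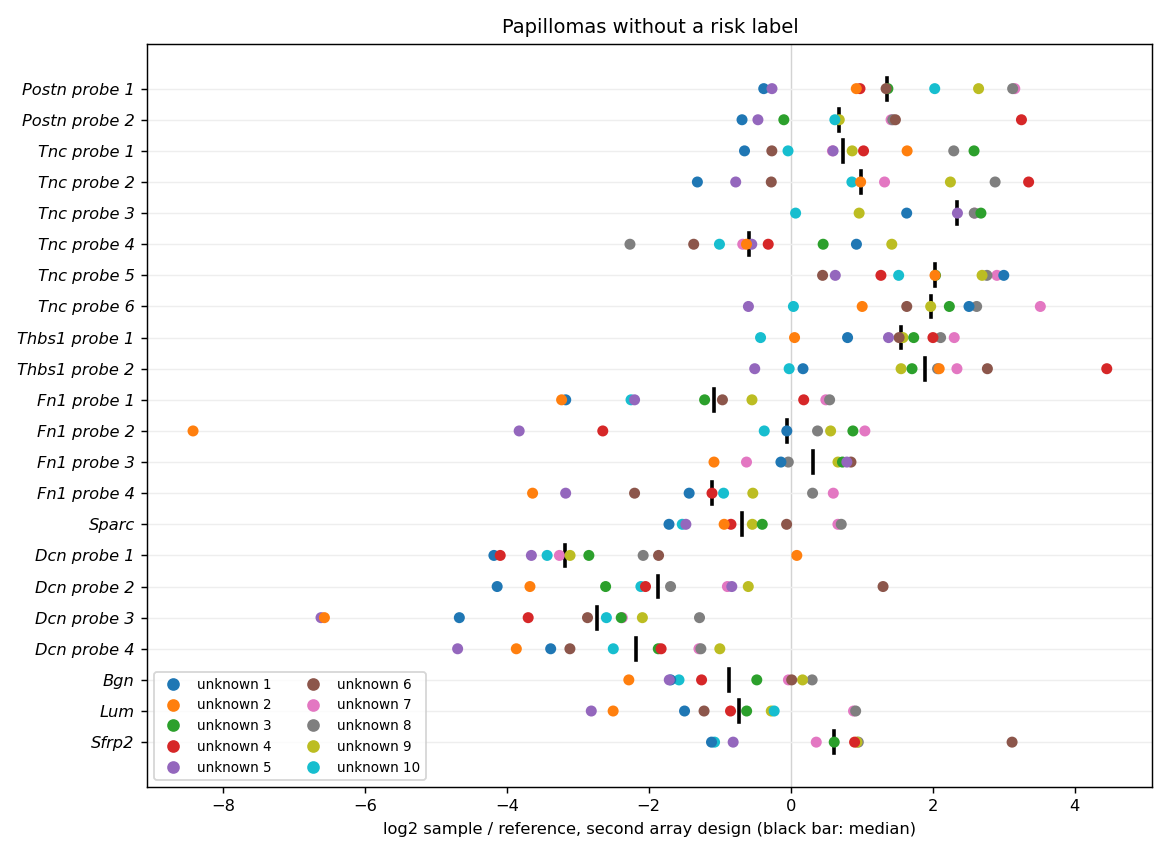
Log2 sample over reference (horizontal axis) of each probe of the 9 genes on the second design in the 10 papillomas without a risk label. Each point is 1 papilloma and the black bar is the median over papillomas. All 4 Dcn probes have medians below 0, and 1 of the 6 Tnc probes has a median below 0.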

How the data were processed

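The deposited values are log2 ratios of 2 dyes per probe, made by the authors. The scanner software, background correction and normalization are not given in the sources used here, and neither is the direction or the log base. Base 2 and Cy5 over Cy3 were taken as likely. Per the labels the sample was in Cy3 on 41 arrays and in Cy5 on 1, so all arrays but that 1 were turned in sign, and each was centred on its median. The array with swapped dyes has the title of low-risk papilloma 3 and the source name of low-risk papilloma 1, and was averaged with the array of low-risk papilloma 1, which left 31 labelled replicates. Array sets were found by clustering arrays on the pattern of empty probes (average linkage, 5 sets).

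Probes were named from the platform annotation (16076 of the first design have 1 symbol). A probe was tested with at least 3 values in every group and values in 70% of replicates, 1 probe per symbol by number of values, which left 18904 probes, 13465 of them named. The groups were compared in 1 limma fit (version 3.58.1, R 4.3.3, moderated variances), with Benjamini-Hochberg adjustment over all 18904 probes and a threshold of 0.05. The steps were tested on simulated data. The members, gene lists, marker lists and rules were chosen with earlier results of these data known. All 10 members are named. Of the other matrix lists, called genes are named, up to 6 per comparison, and for lists without a call at most the 2 with the smallest p. Likeness is Pearson's r of deviations from group means over at least 25 shared replicates, with the 2 highest genes named. The alternatives were 15 other settings and leaving out each of the 31 replicates.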

Additional observations from a re-analysis of the deposited data

Results flagged for a closer look

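In 36 combinations of gene and group with 4 to 10 samples, 3 held a sample far from the others by Dixon's criterion, which chance meets in about 1 group in 20. Dcn in high-risk papilloma 3 had a log2 ratio of -10.1, the lowest of 6, with the next at -4.58. Fn1 in low-risk papilloma 8 had -7.87 on the main probe, the lowest of 8, with the next at -2.73. Sfrp2 in carcinoma 2 had 1.29, the highest of 6, with the next at 0.40. The cause was not tested.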

How the results depend on the processing

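Outside the leaving out of replicates, 448 of 450 alternative values of the 30 reported log2 changes kept their direction. The exceptions were Lum in carcinomas over high-risk papillomas under quantile normalization (-0.00498) and Postn in high-risk over low-risk papillomas when array sets were blocked (1.07). The 450 do not include fits inside single array sets or the second Fn1 probe by itself. In those, some of these changes turned direction, as given above. In the replicates left out in turn, Thbs1 in carcinomas over high-risk papillomas ran from -0.0995 to 0.165. The count of members called in high-risk papillomas against normal skin, 1 in the report, was 0 under scale or quantile normalization, with the array set or the range of database numbers as a block, and in the arrays of the main range alone. It was 2 (Dcn and Postn) with array weights, stayed 1 with only the 2 groups but named Postn (adjusted p = 0.035) instead of Dcn (0.072), and ran from 0 to 1 over the replicates left out. In low-risk papillomas against normal skin the count was 1 (Bgn) with array weights, and in carcinomas against normal skin 1 (Fn1) with only the 2 groups. Of the 414 alternative values of the 9 called changes of other matrix genes, 60 lost the call. The cause was not tested.

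Replicates with the same number in different groups did not deviate together (median r = -0.0245 over 37 pairs, and 0.01 over 317 pairs of different numbers), so the numbers were not taken as a pairing. With a replicate block 1 member was called in high-risk papillomas against normal skin (Dcn, -4.15, adjusted p = 0.033) and 0 in the other 5 comparisons, and Lama3 in high-risk papillomas and Dkk1, Ncan and Sdc2 in low-risk papillomas lost the call. The labels' tumour codes gave a correlation of -0.0186 between arrays of 1 code.

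Signal over background was not given, so it is not known whether an empty or very low probe was dim. Set C gives no value for Dcn.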
